A study of Rattus norvegicus with 10 samples.

Results

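Prostaglandin synthases and receptors are described here in hypertensive and normotensive rats, in the NTS (nucleus tractus solitarii), where baroreceptor nerve fibres reach the brainstem. Every probe set whose platform annotation gives Ptgds, Ptgs1, Ptgs2, Ptges, Ptges2, Ptges3, Ptgis, Ptger3, Ptger4 or Hpgd as its only gene symbol was taken, which gave 14 probe sets of 10 genes out of 31042 on the array without its controls. The arrays compare 5 samples of the spontaneously hypertensive rat (SHR), an inbred strain with high blood pressure, against 5 of the Wistar-Kyoto rat (WKY), the related normotensive strain. All animals were male and 10 to 13 weeks old, and the labels name no treatment. The design text treats each array as a biological replicate, whereas the sample descriptions name 5 animals, so whether an array holds a pool is not settled, and each p-value covers no more than the spread among these 10 arrays. A group differs from the other by its whole inbred genome and not by a single allele.

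Prostaglandins are lipid mediators made from arachidonic acid. Phospholipases A2 release the fatty acid from membranes, the cyclooxygenases Ptgs1 and Ptgs2 turn it into the unstable intermediate PGH2, and terminal synthases convert PGH2 to PGD2, PGE2 or prostacyclin. The products act close to their source on G protein-coupled receptors such as EP3 and EP4, and the dehydrogenase Hpgd ends the signal by oxidising them. In the brain, PGD2 is known for the control of sleep and PGE2 for fever, and central PGE2 also changes sympathetic outflow and blood pressure.

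The sequence before a gene's start is shown for 3 members: Ptgds, the only member that passed the test, Ptges, whose probe sets disagreed, and Ptgs2, the inducible cyclooxygenase, which lay below the filter on dim signals in every array. Each is a 300-base window from RefSeq on assembly GRCr8, written 5′ to 3′ on the gene's strand, with 250 bases before and 50 after the annotated start. They lie at chr3:28682929-28683228 on the minus strand for Ptgds, chr3:34586938-34587237 on the minus strand for Ptges, and chr13:64713813-64714112 on the plus strand for Ptgs2. Capitals mark CATAAA, a variant of the TATA box letters, in Ptgds and Ptges, and the E-box CACGTG in Ptgs2.
Ptgds: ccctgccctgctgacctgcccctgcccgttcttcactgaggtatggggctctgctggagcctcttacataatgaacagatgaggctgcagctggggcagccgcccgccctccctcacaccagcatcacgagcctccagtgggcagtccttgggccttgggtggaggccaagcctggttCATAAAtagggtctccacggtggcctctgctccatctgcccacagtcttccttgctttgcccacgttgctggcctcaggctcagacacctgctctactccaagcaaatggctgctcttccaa
Ptges: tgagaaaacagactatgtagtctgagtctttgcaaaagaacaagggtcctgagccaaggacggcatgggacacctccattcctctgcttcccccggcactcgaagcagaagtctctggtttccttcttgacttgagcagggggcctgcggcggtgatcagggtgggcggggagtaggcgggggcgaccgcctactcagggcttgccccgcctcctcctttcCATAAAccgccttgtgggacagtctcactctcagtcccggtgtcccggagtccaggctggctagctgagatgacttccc
Ptgs2: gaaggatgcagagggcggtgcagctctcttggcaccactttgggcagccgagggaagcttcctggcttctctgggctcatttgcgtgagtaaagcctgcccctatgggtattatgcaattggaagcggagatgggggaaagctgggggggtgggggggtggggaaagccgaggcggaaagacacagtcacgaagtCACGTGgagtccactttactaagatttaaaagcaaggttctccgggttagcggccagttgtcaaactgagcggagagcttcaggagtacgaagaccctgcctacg

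Windows were found for 8 of the 10 genes. Both strands were searched for short motifs that were chosen after the sequences had been read. CATAAA stood in 3 of the 8 windows, on the gene's strand 72 bases before the start of Ptgds, 29 before that of Ptges and 45 before that of Hpgd, and in 12.7% of all 33469 windows of this length. The palindrome CACGTG stood in the windows of Ptgs2, 55 bases before the start, and of Hpgd, 22 bases after it, and in 6.42% of all windows. TATAAA was in none of the 8 and in 14.2% of all windows, and the AP-1 letters TGANTCA were in none and in 7.33%. The GC box GGGCGG was in 6 of the 8 and in 33.1% of all. These letters describe the windows of the reference strain, and nothing measured here bears on them.

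Each array gives 1 signal for a probe set on a linear scale, in arbitrary units that are comparable between arrays and not between probe sets. The number of arrays limits the precision. Array medians were 44.2 to 49.8 in SHR, against 39.6 to 45.7 in WKY, with the highest medians in SHR 3 and SHR 2 and the lowest in WKY 5 and WKY 4. All 13 NTS and dorsal vagal genes found on the array, among them Hoxa5, Prlh and Npff, passed the filter on dim signals. Choroid plexus, leptomeningeal and oligodendrocyte markers were present as well. A difference in these bulk samples can come from fewer cells of a type, from less RNA in each or from other sources, which cannot be told apart.

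Of the 14 probe sets, 6 passed the filter, which asks for 5 of 10 arrays at or above the 40th percentile of the array. They belong to Ptgs1, Ptgds, Ptges, Ptges2, Ptges3 and Ptger3. Of these 6, 1 was lower in SHR and 0 were higher by limma at a Benjamini-Hochberg adjusted p below 0.05, and 2 had an unadjusted p under 0.05. Over all 18846 probe sets tested, 4.26% passed, 2.20% lower and 2.06% higher in SHR, and 21.0% had an unadjusted p under 0.05, so 1 of 6 is not a result about the whole group of genes. The median log2 difference of the 6 was -0.12, against 0.016 over all probe sets tested. The strains overlapped in all 6, which is near the background, since only 6.13% of all probe sets tested did not overlap. The other 8 probe sets, with Ptgs2, Ptgis, Ptger4 and Hpgd represented by these alone, were too dim to be tested.

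**Figure D1:**
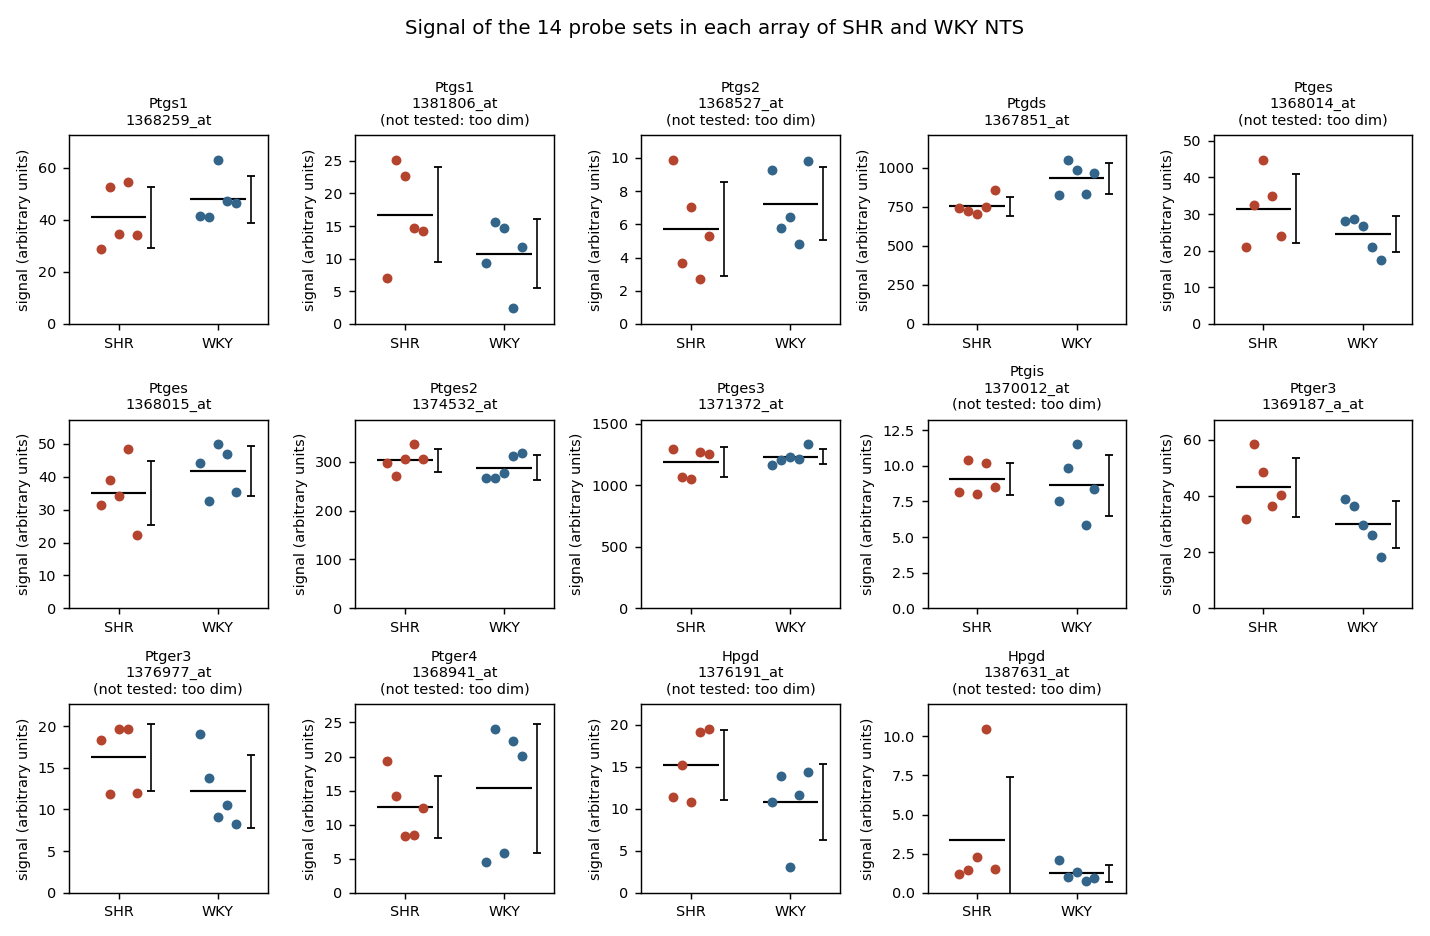
Signal in arbitrary units (y axis, from 0, with its own scale in each panel) of the 14 probe sets, 1 point for each of 5 SHR (left) and 5 WKY (right) arrays, with the mean as a line and the SD as a bar, which for 1 Hpgd probe set runs below 0. For Ptgds, 4 of the 5 SHR points lie below every WKY point, and in every panel the strains overlap.

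Ptgds, the lipocalin-type synthase that makes PGD2 in the brain and is also secreted into the cerebrospinal fluid as a carrier of lipophilic molecules, was lower in SHR (probe set 1367851_at). Its signal was 743, 721, 705, 748 and 861 in SHR 1 to SHR 5, against 829, 1052, 984, 835 and 965 in WKY 1 to WKY 5. Hence 4 SHR arrays lay below all WKY arrays, and SHR 5 lay inside the WKY range, above WKY 1 and WKY 4. It averaged 756 ± 61.4 in SHR, against 933 ± 97.6 in WKY (SD, n = 5 each), which is 19.0% lower in SHR. The log2 difference was -0.30 ± 0.074 (SE) with a 95% confidence interval from -0.45 to -0.14 and a limma adjusted p of 0.0306.

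Over 23 other settings this difference ran from -0.34 to -0.24 and stayed below 0 in each. The other filters, the eBayes settings, the replicate block and 1 probe set per gene cannot change the difference itself. A further 10 settings leave out only 1 array. The narrow range is therefore no independent support for the difference. The adjusted p ran from 0.0129 to 0.156, and the call ended in 11. Leaving out SHR 1, SHR 2, SHR 3, SHR 4, WKY 2, WKY 3 or WKY 5 ended it, with adjusted p-values up to 0.0863. Leaving out SHR 5, the SHR array with the highest value, gave -0.34 and an adjusted p of 0.0129. Ptgds has no second probe set on the array, so the difference could not be set against another.

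**Figure D2:**
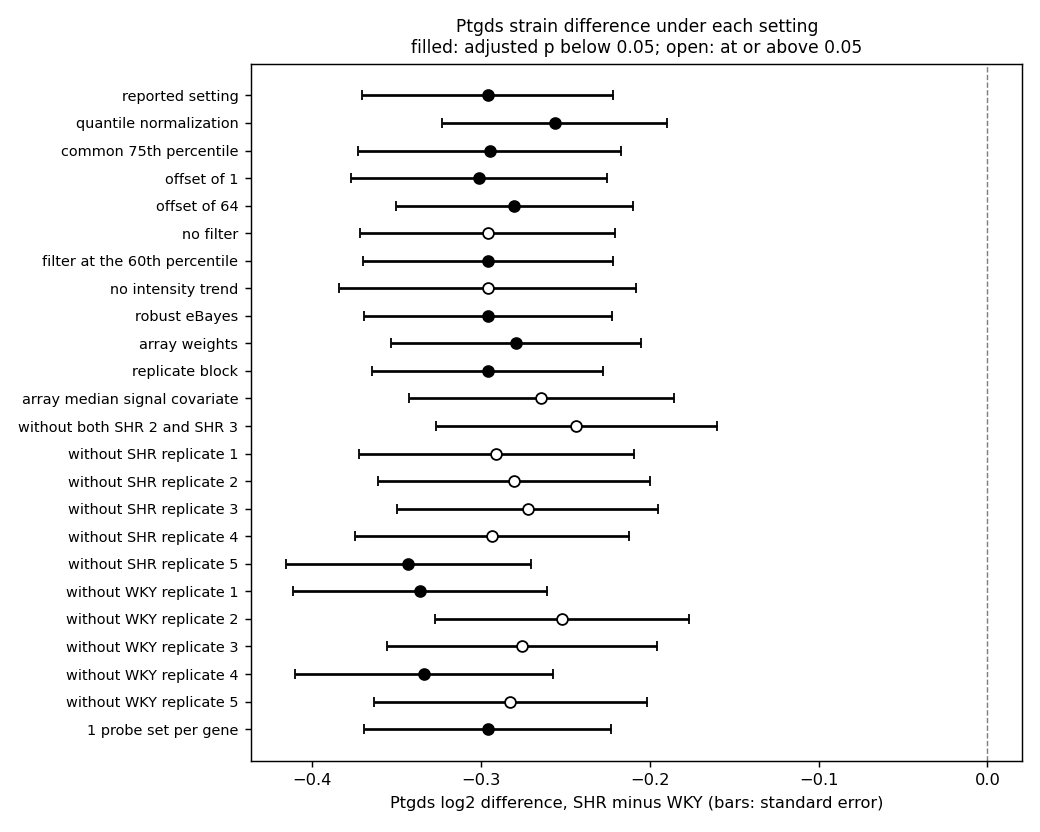
Log2 difference of Ptgds, SHR minus WKY (x axis, bars are the standard error), for the reported setting at the top and 23 others below it. All points lie between -0.34 and -0.24, filled where the limma adjusted p was below 0.05 and open in the 11 settings where it was not.

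In the adult brain Ptgds transcripts are known mainly from leptomeninges, choroid plexus and oligodendrocytes, so the markers of these cells stand beside the Ptgds values, with Ptgds itself left out. Of 14 leptomeningeal probe sets tested, 0 passed by limma and 5 had an unadjusted p under 0.05, against 21.0% of all probe sets tested. Of these 5, those of Aldh1a2, Col1a2 and Mgp were lower in SHR and those of Col3a1 and Foxc1 higher. The median log2 difference of the 14 was 0.0023. Summed over these probe sets the signal was 969 to 1370 in SHR, against 1019 to 1689 in WKY. Signals are not comparable between probe sets, so such sums weigh bright probe sets most. A gene's share of a sum is a share of signal and not of transcripts. The transporter genes Slc6a13, Slc22a6 and Slc13a4, which mark the leptomeninges, were all too dim to be tested. Of 18 oligodendrocyte probe sets 2 were lower and 0 higher, against 2.20% and 2.06% of all probe sets tested. Both were of Mobp, a myelin gene, at log2 differences of -1.41 and -0.34. The third tested Mobp probe set was at -0.022 (limma adjusted p = 0.925). Of the 18, 13 had log2 differences below 0 (median of the 18, -0.060), against 46.0% of all probe sets tested. Their summed signals were 10568 to 12982 in SHR and 9902 to 12749 in WKY. Mbp, another myelin gene, made up 40.9% of these sums. Without Mbp the sums were 5795 to 6924 in SHR and 6306 to 8156 in WKY. There, 4 of 5 WKY arrays lay above all SHR arrays. These sums still hold Mobp, whose 2 lower probe sets averaged 189 and 1201 in SHR, against 529 and 1526 in WKY. Sums without Mobp were not formed, so whether the other markers go in the direction of Ptgds is not shown by them. Of 6 choroid plexus probe sets 0 were lower and 2 higher, Enpp2 and Sostdc1. All 6 had log2 differences above 0 (median 0.32), and 4 had an unadjusted p under 0.05. Their sums were 1005 to 1177 in SHR and 754 to 1041 in WKY, but Enpp2, which oligodendrocytes also express, made up 68.5% of them. Without Enpp2 the sums were 293 to 407 in SHR and 195 to 413 in WKY, and no SHR array lay above all WKY arrays. The highest, 413, was in WKY 1, the array with the high Ttr signal given next. Ttr, the transthyretin gene that defines choroid plexus epithelium, averaged 58.1 in SHR and 67.0 in WKY, where WKY 1 alone had 182 (limma adjusted p = 0.930). Sums without the brightest gene of a list were added after the data had been seen. Of the 14 NTS and dorsal vagal probe sets, 8 had log2 differences above 0 and 6 below, with a median of 0.012. By limma 2 were lower in SHR and 0 higher, against 2.20% and 2.06% of all probe sets tested. The lower ones were Tac1 (log2 difference -0.33 ± 0.070 SE; limma adjusted p = 0.0114) and Prlh (-0.42 ± 0.11 SE; limma adjusted p = 0.0379). All 5 with an unadjusted p under 0.05, among them Dbh, Gcg and Th, were below 0, and 21.0% of all probe sets tested had such a p. Summed signals of the 14 were 4280 to 4553 in SHR and 4484 to 5441 in WKY. Without Hoxa5, which made up 22.0% of these sums, they were 3297 to 3539 in SHR and 3494 to 4280 in WKY. There, 3 SHR arrays lay below all WKY arrays, and 4 WKY arrays lay above all SHR arrays. The part that any of these cells have in the Ptgds difference was not tested.

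**Figure D3:**
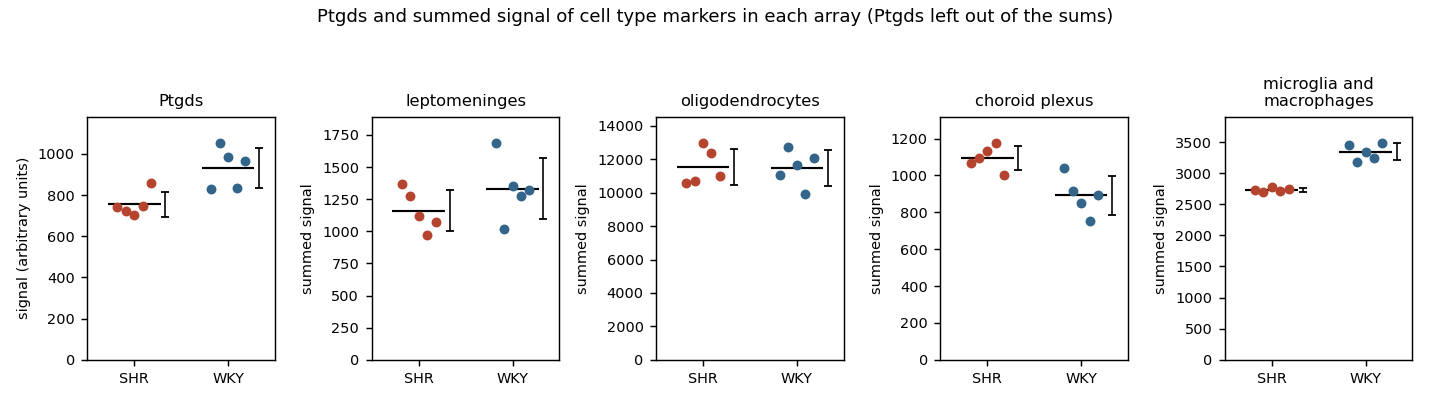
Signal of Ptgds and summed signal of tested marker probe sets (y axes, from 0) in each of 5 SHR (left) and 5 WKY (right) arrays, with the mean as a line and the SD as a bar. The leptomeningeal, oligodendrocyte and choroid plexus sums overlap between the strains, the choroid plexus sums being mostly Enpp2 (68.5%) and the oligodendrocyte sums 40.9% Mbp, and all 5 SHR sums of microglia and macrophage markers lie below the WKY sums.

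Within the strains, the 5 genes whose array-to-array deviations from the strain mean were most like those of Ptgds over the 10 arrays were Tpp2 (Pearson r 0.916, Spearman rho 0.964), Dbndd2 (0.909 and 0.903), Sec11c (0.894 and 0.915), Mcu (0.881 and 0.855) and Prxl2a (0.876 and 0.867). They were picked as the highest of all genes tested and share each array's signal level, so these values are a description. Of the 5, Dbndd2 also fell in SHR, by a log2 difference of -0.27 ± 0.067 (SE; limma adjusted p = 0.0303). Mcu had a log2 difference of 0.0089 ± 0.10 (SE; limma adjusted p = 0.972).

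Ptgs1, the constitutive cyclooxygenase, which in rodent brain is found chiefly in microglia, had a tested and a dim probe set that pointed in opposite directions. The tested one, 1368259_at, had signals of 28.9, 52.7, 34.7, 54.3 and 34.3 in SHR 1 to SHR 5 and of 41.5, 40.8, 63.0, 47.4 and 46.3 in WKY 1 to WKY 5. SHR 1, SHR 3 and SHR 5 lay below all WKY arrays, and SHR 2 and SHR 4 lay above all of them but WKY 3. This is a log2 difference of -0.18 ± 0.15 (SE; 95% confidence interval -0.49 to 0.13; limma adjusted p = 0.518). The dim one, 1381806_at, averaged 16.8 ± 7.21 in SHR, against 10.8 ± 5.29 in WKY (SD, n = 5 each), a log2 difference of 0.29. Beside this, of 13 tested probe sets of microglia and macrophages, SHR had 5 lower and 0 higher, against 2.20% and 2.06% of all probe sets tested. Log2 differences were above 0 in 2 of the 13, Cx3cr1 and 1 Aif1 probe set (0.51), whereas the other Aif1 probe set was at -0.52. Summed signals of the 13 were 2700 to 2786 in SHR and 3172 to 3488 in WKY. Without Ctss, the brightest gene of the list, they were 1651 to 1785 in SHR and 1994 to 2225 in WKY. Cd68, Ptprc and Trem2 of that list were too dim to be tested and are not in these sums. Of their 5 probe sets, 3 had log2 differences below 0 and 2 above, those of Cd68 (0.70) and 1 of Trem2 (0.34). Cd68 averaged 26.8 in SHR, against 9.96 in WKY. The part of microglia and macrophages in the Ptgs1 values was not tested.

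Ptgs2, the cyclooxygenase that neurons and inflamed tissue induce, was close to the floor of the arrays. Its signal (probe set 1368527_at) was 9.89, 3.70, 7.02, 2.71 and 5.29 in SHR 1 to SHR 5, against 9.25, 5.80, 6.44, 4.83 and 9.85 in WKY 1 to WKY 5. No array came near the 40th percentile, which lay between 31.3 and 35.9 in SHR and between 26.3 and 32.0 in WKY. A strain difference of Ptgs2 was therefore not detectable at this signal.

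PGE2 is made by 3 terminal synthases, none of which differed past the threshold. Ptges encodes the inducible membrane-bound synthase that works with Ptgs2. Its tested probe set, 1368015_at, had signals of 31.5, 39.1, 34.0, 48.4 and 22.3 in SHR 1 to SHR 5, against 44.0, 32.5, 49.9, 46.9 and 35.3 in WKY 1 to WKY 5. SHR 1 and SHR 5 lay below all WKY arrays, and the other SHR arrays lay among them. The Ptges log2 difference was -0.19 ± 0.15 (SE; 95% confidence interval -0.50 to 0.12; limma adjusted p = 0.493). The second Ptges probe set, 1368014_at, at or above the 40th percentile in 2 of 10 arrays, averaged 31.5 ± 9.40 in SHR and 24.5 ± 4.89 in WKY (SD, n = 5 each), a log2 difference of 0.22 in the other direction.

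Ptges2, the second membrane-associated PGE2 synthase (probe set 1374532_at), had signals of 297, 271, 304, 335 and 306 in SHR 1 to SHR 5, and of 266, 266, 276, 312 and 318 in WKY 1 to WKY 5. The ranges were nearly the same. The Ptges2 log2 difference was 0.070 ± 0.073 (SE), with a 95% confidence interval from -0.083 to 0.22 (limma adjusted p = 0.618). Ptges3, the cytosolic PGE2 synthase that is better known as p23, a co-chaperone of Hsp90 (probe set 1371372_at), had 1296, 1065, 1047, 1269 and 1257 in SHR 1 to SHR 5, against 1167, 1208, 1230, 1216 and 1333 in WKY 1 to WKY 5. SHR 2 and SHR 3 lay below all WKY arrays. As a log2 difference this was -0.056 ± 0.069 (SE; 95% confidence interval -0.20 to 0.089; limma adjusted p = 0.679), and without SHR 2 and SHR 3 it was 0.051. For these PGE2 synthases the intervals leave room for differences of about the size seen for Ptgds only in Ptges.

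The 5 genes whose deviations from the strain means were most like those of Ptges3 over the 10 arrays were Hnrnpa3 (Pearson r 0.983, Spearman rho 0.964), Mpdz (0.974 and 0.939), Plekha3 (0.965 and 0.939), Zfp827 (0.954 and 0.964) and Wipf1 (0.948 and 0.939). They were picked as the highest of all genes tested, and none of the 5 passed the limma test between the strains. No like genes were sought for Ptgs2, which the filter removed.

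Ptgis, the cytochrome P450 that makes prostacyclin in vessel walls, was too dim to be tested. Its signal (probe set 1370012_at) was 8.17, 10.4, 8.03, 10.2 and 8.53 in SHR 1 to SHR 5, against 7.5, 9.87, 11.5, 5.88 and 8.36 in WKY 1 to WKY 5. All SHR arrays lay within the WKY range, and the log2 difference of 0.029 turned to -0.033 with quantile normalization.

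**Figure D4:**
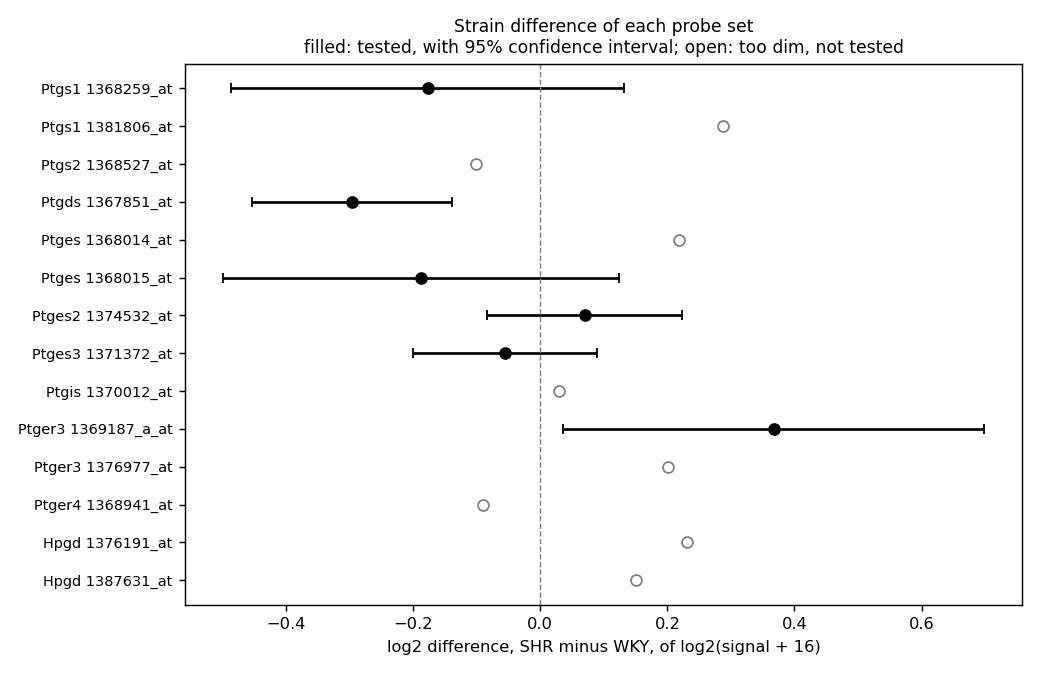
Log2 difference, SHR minus WKY, of log2(signal + 16) (x axis) for each of the 14 probe sets (y axis), where filled points are the 6 tested probe sets with their 95% confidence interval and open points are the 8 that were too dim to be tested. The intervals of Ptgds (-0.45 to -0.14) and of Ptger3 (0.036 to 0.70) lie to 1 side of 0, and only Ptgds passed after adjustment over all probe sets.

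Ptger3 encodes EP3, the PGE2 receptor that lowers cyclic AMP and has been localised to the NTS among other rat brainstem nuclei. Its tested probe set, 1369187_a_at, of a kind that matches more than 1 transcript of a gene, had signals of 32.0, 58.4, 48.5, 36.4 and 40.3 in SHR 1 to SHR 5, against 38.8, 36.6, 29.7, 26.1 and 18.3 in WKY 1 to WKY 5. SHR 2, SHR 3 and SHR 5 lay above all WKY arrays, and all 5 SHR arrays lay above the WKY median. It averaged 43.1 ± 10.5 in SHR, against 29.9 ± 8.25 in WKY (SD, n = 5 each). The log2 difference was 0.37 ± 0.16 (SE; 95% confidence interval 0.036 to 0.70) with an unadjusted p of 0.0319 and a limma adjusted p of 0.189, so it did not pass.

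The extreme Ptger3 values lay in the arrays with the extreme medians, but the values between did not follow the medians. SHR 1 had 32.0 at a median of 46.3, below WKY 1 with 38.8 at a median of 44.6. The highest were in SHR 2 and SHR 3, the arrays with the highest medians, and the lowest in WKY 5 and WKY 4, those with the lowest. With the median of each array as a covariate the log2 difference was 0.20 (adjusted p = 0.517), and with quantile normalization it was 0.25 (adjusted p = 0.354). Array medians tended to be higher in SHR, so signal level and strain cannot be told apart here. The second Ptger3 probe set, 1376977_at, was too dim to be tested and averaged 16.3 ± 4.01 in SHR and 12.2 ± 4.41 in WKY (SD, n = 5 each), a log2 difference of 0.20.

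Ptger4, the PGE2 receptor EP4 that raises cyclic AMP (probe set 1368941_at), had signals of 19.3, 14.2, 8.32, 8.44 and 12.4 in SHR 1 to SHR 5, against 4.50, 24.1, 5.77, 22.3 and 20.025 in WKY 1 to WKY 5. The WKY arrays fell apart into WKY 1 and WKY 3 below all SHR arrays and the other 3 above them. At this signal no difference was detectable. Hpgd, the enzyme that inactivates prostaglandins by oxidation, had 2 dim probe sets. The first, 1376191_at, had 11.5, 15.2, 10.8, 19.2 and 19.5 in SHR 1 to SHR 5, against 10.9, 13.9, 3.08, 11.7 and 14.3 in WKY 1 to WKY 5, so that 3 SHR arrays lay above all WKY arrays. The second, 1387631_at, had a signal between 0.77 and 2.30 in every array except SHR 4, where it was 10.5.

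Among the 8 dim probe sets, 6 had log2 differences above 0 and 2 below, from -0.10 to 0.29. Over all 12196 probe sets that the filter removed, 71.8% had differences above 0, with a median of 0.094, so that share is near the background. When every probe set was tested without the filter, none of the 8 passed by limma, their lowest adjusted p being 0.424.

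The wider prostanoid pathway was set beside these genes through a list of phospholipases, other synthases, receptors, transporters and reductases, of which 42 genes had 62 probe sets and 38 probe sets were tested. Of the 38, 1 was lower and 1 higher in SHR, shares close to the 2.20% and 2.06% over all probe sets, and the median log2 difference was 0.056. The arrays of the strains did not overlap in 3 of the 38, those of Ptgr1, Pla2g6 and Abhd6, against 6.13% of all probe sets tested. Pla2g6 and Abhd6 were chosen for naming after their values were seen.

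Pla2g12a, a secreted phospholipase A2 of group XII, was the higher one. Its signal was 54.8, 81.3, 82.8, 86.3 and 87.7 in SHR 1 to SHR 5, against 40.9, 42.2, 59.9, 46.7 and 61.1 in WKY 1 to WKY 5. All SHR arrays but SHR 1 lay above every WKY array, and SHR 1 lay between WKY 4 and WKY 3. The log2 difference was 0.51 ± 0.13 (SE; limma adjusted p = 0.0301), and the call ended without SHR 2, SHR 3, SHR 4, SHR 5, WKY 1, WKY 2 or WKY 4, with adjusted p-values up to 0.0837. It also ended with quantile normalization (adjusted p = 0.0688), without the filter (0.0679) and without both SHR 2 and SHR 3 (0.125). Another phospholipase gene, Pla2g6, was not called: its tested probe set averaged 44.9 ± 8.52 in SHR and 64.4 ± 5.28 in WKY (SD, n = 5 each), a log2 difference of -0.41 ± 0.12 (SE; limma adjusted p = 0.0551).

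Ptgr1, a reductase that inactivates prostaglandins after Hpgd has acted and that also inactivates leukotriene B4, was the lower one. Its signal was 60.6, 51.2, 50.9, 53.4 and 53.2 in SHR 1 to SHR 5, against 93.2, 116, 97.3, 113 and 101 in WKY 1 to WKY 5, so that every SHR array lay far below every WKY array. The log2 difference was -0.78 ± 0.091 (SE; limma adjusted p = 5.29e-05), and the call held in all 23 other settings.

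**Figure D5:**
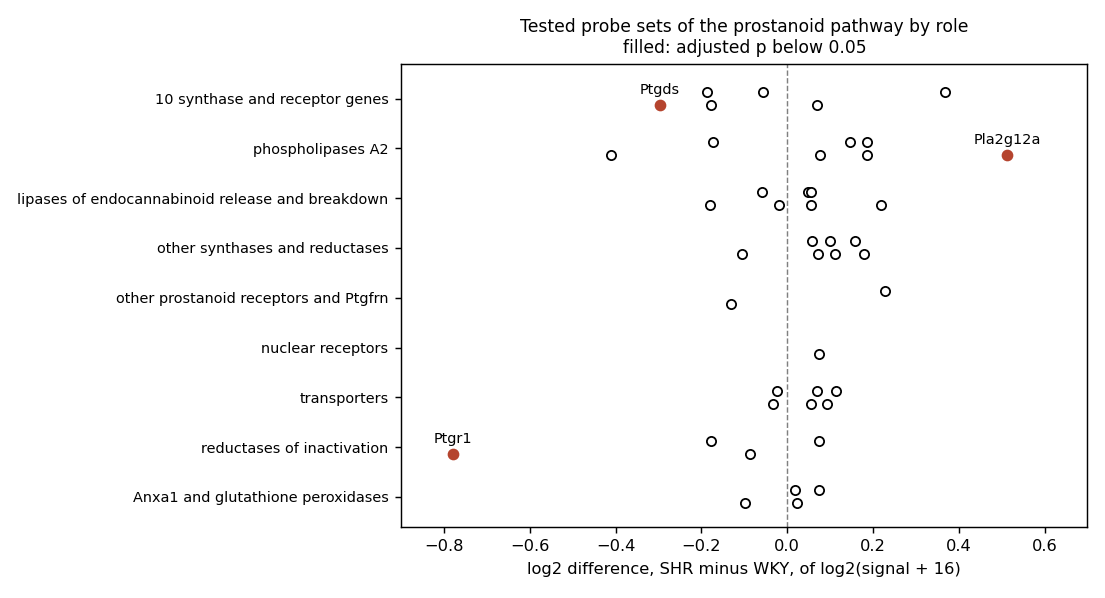
Log2 difference, SHR minus WKY (x axis), of each tested probe set of the 10 synthase and receptor genes (top row) and of the wider prostanoid list by role (lower rows). Ptgds and Ptgr1 (lower in SHR) and Pla2g12a (higher in SHR) are the filled points that passed the limma test, at -0.30, -0.78 and 0.51, and most others lie close to 0.

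The other prostanoid receptors were dim with 1 exception. The tested probe set of Ptgfr, the PGF2-alpha receptor gene, averaged 36.8 ± 5.58 in SHR and 29.5 ± 8.34 in WKY (SD, n = 5 each; log2 difference 0.23 ± 0.14 SE; limma adjusted p = 0.390). The other Ptgfr probe set was close to the floor of the arrays, at 1.00 ± 0.37 in SHR and 0.65 ± 0.16 in WKY. Tbxa2r, the thromboxane receptor gene, averaged 20.9 ± 13.5 in SHR and 11.8 ± 5.60 in WKY, with SHR arrays spread from 4.18 to 38.0. Ptger1, the EP1 gene, averaged 23.7 ± 14.2 in SHR and 22.1 ± 8.08 in WKY on 1 of its probe sets and 8.07 ± 7.08 in SHR and 4.10 ± 2.36 in WKY on the other. Ptger2, the EP2 gene, averaged 3.32 ± 1.75 in SHR and 2.18 ± 0.67 in WKY, and Ptgdr2, which encodes a PGD2 receptor, 3.33 ± 1.46 in SHR and 2.72 ± 1.00 in WKY. The probe sets of Ptgdr, the other PGD2 receptor gene, carry more than 1 gene symbol and were left out, and no probe set was listed under Ptgir. Of the synthases, Tbxas1, which makes thromboxane, averaged 74.9 ± 14.2 in SHR, against 68.0 ± 12.2 in WKY (0.11 ± 0.13 SE on the log2 scale; limma adjusted p = 0.652). Hpgds, the haematopoietic PGD2 synthase, had signals of 31.5, 40.3, 40.4, 28.6 and 27.7 in SHR 1 to SHR 5, against 33.1, 23.4, 24.7, 16.4 and 20.3 in WKY 1 to WKY 5. It was too dim to be tested, and its values, like those of Ptger3, were highest in SHR 2 and SHR 3 and lowest in WKY 4 and WKY 5.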

How the data were processed

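Total RNA of the NTS was amplified and hybridised to 1-colour Affymetrix arrays (per the labels' protocols). In the deposited table there is 1 linear intensity per probe set and array, which the authors made with GCOS 1.2 (named in the submitters' processing notes). The sources used here give no summarisation or background step. From the values, each array had been scaled to a common trimmed mean, so no further normalization was applied.

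Arrays were grouped by strain from their titles, and the unnumbered first title of each strain is called 1 here. The members and lists were chosen with earlier results of these data known. Control probe sets were left out. On log2(signal + 16), limma 3.58.1 (R 4.3.3) was fitted with strain as the only term and an intensity trend, over the 18846 probe sets with 5 of 10 arrays at or above the 40th percentile. P-values were adjusted by Benjamini-Hochberg over all of these, with 0.05 as threshold. Log2 differences understate changes of dim probe sets, and means and SDs are on the linear scale. Symbols were updated through Entrez identifiers to GRCr8; of 31042 probe sets 20826 had 1 symbol, 436 several and 9780 none.

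Named were all members, members of the wider list past the threshold, 7 other receptors and 2 synthases by rule, and the 5 genes most like Ptgds and Ptges3. Alternatives were other scalings, offsets of 1 and 64, other filters, other eBayes settings, the replicate number as a block, array weights, the array median as a covariate, 1 probe set per gene, and leaving out arrays.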

Additional observations from a re-analysis of the deposited data

Results flagged for a closer look

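In 5 of 50 groups of 5 arrays, an array stood apart from the other 4 of its strain by Dixon's ratio, a ratio that chance exceeds in about 1 of 20 groups. Among the synthases and receptors, SHR 5 had the highest Ptgds signal of its strain at 861, against 705 to 748 in the other SHR arrays. The second Hpgd probe set had 10.5 in SHR 4, against 1.22 to 2.30 in the other SHR arrays.

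In the wider list, Pla2g12a had 54.8 in SHR 1, against 81.3 to 87.7 in the other SHR arrays. Ptgr1 had 60.6 in SHR 1, against 50.9 to 53.4 in the other SHR arrays, and that value still lay below every WKY array. Ptgdr2 had 4.50 in WKY 3, against 2.15 to 2.45 in the other WKY arrays, all of them very low signals.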

How the results depend on the processing

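The Ptgds difference kept its sign in all 23 other settings, several of which cannot change the difference, with adjusted p-values from 0.0129 to 0.156. Its call ended without the filter (-0.30, adjusted p = 0.0638) and without the intensity trend (-0.30, adjusted p = 0.0844), which leave the difference itself as it was, with the array median as a covariate (-0.26) and without both SHR 2 and SHR 3 (-0.24). With 1 array left out it ran from -0.34 to -0.25 and the call ended in 7 of 10 fits. The count of member probe sets past the threshold was accordingly 0 in these settings and between 0 and 1 with 1 array left out. The wider list, with 2 calls as reported, had 1 without the filter and without both SHR 2 and SHR 3, 3 without the intensity trend, with the replicate block and with the covariate, and 1 to 3 with 1 array left out. Over all probe sets, the count of 803 became 520 with the covariate, 471 without both SHR 2 and SHR 3, 437 with 1 probe set per gene, where fewer features are tested, and 450 to 945 with 1 array left out. The Ptges3 difference turned to 0.016 with the covariate and 0.051 without both SHR 2 and SHR 3. Where a value does not follow from how the setting is built, the cause was not tested.

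Same-numbered arrays of the strains are not known to be paired: their deviations correlated at 0.038 to 0.282, and 3 of 5 SHR arrays correlated best with their own number. With the replicate block 1214 probe sets passed, and Ptgds kept its call (adjusted p = 0.0250). Dim signals limit what Ptgs2, Ptgis, Ptger4 and Hpgd can show: with an offset of 1 the log2 difference of the first Hpgd probe set was 0.56 against 0.23 as reported.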

Other observations

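The genes next to Ptgds in the reference order give the following values. Of the 10 protein-coding genes on either side of it on assembly GRCr8, 14 had tested probe sets, and of these 16 probe sets 0 passed in either direction by limma and 0 had an unadjusted p under 0.05. With 4.26% of all probe sets passing, 0 of 16 passing is near the background. An unadjusted p under 0.05 was found for 21.0% of all probe sets tested. Their log2 differences ran from -0.13 to 0.21 with a median of 0.015, against -0.30 for Ptgds. The nearest tested neighbour on each side was Paxx, a DNA repair factor, at -0.12 ± 0.060 (SE; adjusted p = 0.257), and, on the other side, C8g, a complement component gene, at 0.15 ± 0.12 (SE; adjusted p = 0.530). These neighbours were looked up after the Ptgds value was known.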
